A study of Mus musculus with 6 samples.

Results

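The 9 genes examined here encode the working parts of the phototransduction cascade of rods: the transducin subunits Gnat1 and Gnb1, the phosphodiesterase subunits Pde6a, Pde6b and Pde6g, the channel subunits Cnga1 and Cngb1, and the regulators of the pigment Sag (arrestin) and Rcvrn (recoverin). They were taken as a named list from 21938 protein-coding genes of the GENCODE annotation of GRCm38, by a rule that is a list of names and holds no measured value. The list was still chosen with earlier results of these data known. The data were peak lists of H3K27ac, an acetylation of histone H3 found at active promoters and enhancers, from ChIP-seq of single retinas of wild type mice. The mice were 3 months old at the first pressure elevation. In the 4xIOP group (3 lists) 1 eye had been held at 30 mmHg for 1 h on 4 biweekly occasions, and the untreated contralateral eyes formed the control group (3 lists). All retinas were taken on day 2 after the last elevation, and the comparison asks whether repeated mild stress moves this mark. The protocol text of the labels also describes injections of dasatinib or vehicle, but the labels of these 6 samples assign neither to a group. The labels describe pressure in 1 eye per mouse and chromatin from each eye, which places the 4xIOP lists in different mice, but they do not say which eyes of the 2 groups share a mouse. The p-values measure the spread between these lists.

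In rods, light acts on the visual pigment, which activates transducin, and the transducin alpha subunit relieves the phosphodiesterase of its inhibitory subunit. The enzyme then breaks down cyclic GMP, and the cyclic nucleotide-gated channel of the outer segment closes. Arrestin caps the phosphorylated pigment and so ends its signal, whereas recoverin, a calcium sensor, restrains the kinase that phosphorylates it and so prolongs the response. Rods are the most numerous cells of the mouse retina, and their photoreceptor genes are driven by the homeodomain factors Crx and Otx2 together with Nrl and Nr2e3. In bulk retina, fewer cells of a type and less mark per cell cannot be told apart.

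The lists held between 16195 (4xIOP replicate 3) and 36509 peaks (control replicate 3), which covered 6.66 and 20.1 Mb. The name that a deposited list itself carries was that of the other group in 4 of the 6 samples (control replicates 1 and 2, 4xIOP replicates 1 and 2), and that of the label only in control replicate 3 and 4xIOP replicate 3. Groups are used as labelled, and every direction between them rests on the labels. The tissue label was checked with marker genes. A promoter peak in all 6 lists was present for 3 of 4 photoreceptor transcription factors (Nrl, Nr2e3 and Otx2), for 1 of 4 Mueller glia genes (Glul) and for 1 of 5 amacrine and horizontal cell genes (Slc6a9), and for no gene of 5 bipolar, 5 retinal ganglion cell, 6 retinal pigment epithelium, 5 microglia, 4 endothelium, 4 lens and 5 non-ocular genes. The most genes marked in any 1 list were 5 of the bipolar, 2 of the Mueller glia, 2 of the non-ocular, 1 each of the ganglion cell, amacrine and horizontal, pigment epithelium and endothelium genes, and 0 of the microglia and lens genes.

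The upstream sequences of the rod genes are shown first, because the bases directly before the start sites were covered by no peak in any list. RefSeq promoters were given for 5 of the 9 genes, namely Gnb1, Pde6b, Cnga1, Cngb1 and Sag, and not for Gnat1, Pde6a, Pde6g and Rcvrn. The 250 bases before the RefSeq start of each are printed 5′ to 3′ on the strand of the gene (GRCm38.p6). They were chosen for printing after the values were seen. Capitals mark the letters TAATCC, the core bound by Crx and Otx2, TGCTGA, a half-site of Nrl, GGGCGG, the GC box, and TATAAA, the TATA box, on either strand. No match of 1 motif overlapped one of another, while the first pair of GC boxes of Gnb1 shared a base.
Gnb1, chr4:155491111-155491360, + strand: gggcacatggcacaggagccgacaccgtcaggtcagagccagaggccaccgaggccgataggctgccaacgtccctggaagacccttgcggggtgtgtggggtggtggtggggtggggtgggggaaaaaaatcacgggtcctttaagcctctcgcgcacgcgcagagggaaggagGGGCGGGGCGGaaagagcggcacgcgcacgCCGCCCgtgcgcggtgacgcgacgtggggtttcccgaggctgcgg
Pde6b, chr5:108388123-108388372, + strand: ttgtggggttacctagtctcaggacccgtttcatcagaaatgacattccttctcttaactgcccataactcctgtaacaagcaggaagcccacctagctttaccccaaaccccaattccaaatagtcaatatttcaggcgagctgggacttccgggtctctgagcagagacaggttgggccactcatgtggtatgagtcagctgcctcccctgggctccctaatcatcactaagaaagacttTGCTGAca
Cnga1, chr5:72642753-72643002, - strand: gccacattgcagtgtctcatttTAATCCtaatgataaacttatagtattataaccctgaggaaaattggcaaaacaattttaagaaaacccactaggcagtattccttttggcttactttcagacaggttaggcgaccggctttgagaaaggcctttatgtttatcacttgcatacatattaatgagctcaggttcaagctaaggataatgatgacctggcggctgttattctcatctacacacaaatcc
Cngb1, chr8:95306586-95306835, - strand: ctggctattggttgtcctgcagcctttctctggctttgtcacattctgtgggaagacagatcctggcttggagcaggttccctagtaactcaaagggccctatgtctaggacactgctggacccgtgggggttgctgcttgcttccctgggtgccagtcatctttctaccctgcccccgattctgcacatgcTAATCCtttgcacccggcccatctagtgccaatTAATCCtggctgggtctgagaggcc
Sag, chr1:87803430-87803679, + strand: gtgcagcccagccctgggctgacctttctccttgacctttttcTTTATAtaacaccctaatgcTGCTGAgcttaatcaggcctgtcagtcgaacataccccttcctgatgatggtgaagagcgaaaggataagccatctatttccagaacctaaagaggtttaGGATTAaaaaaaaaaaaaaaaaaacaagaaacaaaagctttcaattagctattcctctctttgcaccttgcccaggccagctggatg

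Among 32851 promoters of the same length, TAATCC was present in 6.25%, TGCTGA in 16.1%, GGGCGG in 32.7% and TATAAA in 12.4%. The photoreceptor motif stood in 3 of the 5 rod gene promoters. Cngb1 held it at positions -58 and -25 from the start, Sag at -87 and Cnga1 at -228. The Nrl half-site was found at -8 in Pde6b and at -187 in Sag, whose promoter also held the letters TATAAA at -207 on the opposite strand. Gnb1, the transducin beta subunit that many other cell types use as well, had neither photoreceptor motif. It held 3 GC boxes at -75, -70 and -45, 26 CpG dinucleotides and 69.2% G and C. The other 4 promoters had 2 or 3 CpG, against a median of 6 over all promoters, where the median content of G and C was 52.4%. A match is a match of letters and does not show binding.

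All 9 rod genes had a promoter peak in all 6 lists, a promoter being 2.5 kb on either side of any start in the basic GENCODE set. The same was true of 39.5% of all protein-coding genes (8669 of 21938). Within 1 kb of a start it was true of 8 of the 9, since Cnga1 had no peak there in 4xIOP replicate 1. Each gene is described below by its promoter peak with the most fragments. The fragments at the summit and the local background were recovered from the deposited fold and p-value. The fragments are a pile-up at a single base, so gene length does not enter.

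By summit fragments, both transducin subunits were above the median of marked genes in every list. Gnat1 (ENSMUSG00000034837.12, chromosome 9, 107674474 to 107679712, minus strand), the alpha subunit that carries the signal from pigment to enzyme, held 90, 109 and 147 fragments at its summit in the control lists, here and below in the order of replicates 1, 2 and 3, while the 4xIOP lists had 74, 99 and 42. The groups overlapped, and 4xIOP replicate 3 was the lowest list by a wide margin. Gnb1 (ENSMUSG00000029064.15, chromosome 4, 155491361 to 155559269, plus strand) had 76, 104 and 137 fragments in control and 66, 86 and 49 in 4xIOP. These also overlapped.

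The phosphodiesterase has a catalytic alpha and beta subunit and the small inhibitory gamma subunit Pde6g. Pde6a (ENSMUSG00000024575.16, chromosome 18, 61220315 to 61289924, plus strand) had 74, 75 and 128 fragments in control and 52, 102 and 54 in 4xIOP. Pde6b (ENSMUSG00000029491.7, chromosome 5, 108388391 to 108432397, plus strand) had 64, 69 and 114 against 68, 82 and 38. In both genes the 4xIOP values spanned those of control replicates 1 and 2. Pde6g (ENSMUSG00000025386.2, chromosome 11, 120447605 to 120453500, minus strand) had 93, 92 and 145 in control and 89, 103 and 62 in 4xIOP, and was the only rod gene with 3 promoter peaks in each of the 6 lists.

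Cnga1 (ENSMUSG00000067220.12, chromosome 5, 72603696 to 72644275, minus strand) and Cngb1 (ENSMUSG00000031789.17, chromosome 8, 95239045 to 95306585, minus strand) form the channel that carries the light-sensitive current. Cnga1 had the lowest summits, with 60, 55 and 104 fragments in control and 45, 52 and 37 in 4xIOP. Here all control lists lay above all 4xIOP lists, as they did for 27.5% of the 8669 genes marked in all 6 lists. The genome-mean background of a list was taken as the lowest background recovered among its peaks. After division by it, the groups overlapped for all 9 rod genes, and the background shares without overlap were 1% below and 0.0346% above. Cngb1 had 76, 84 and 139 fragments in control and 61, 83 and 68 in 4xIOP.

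Of the regulators of the pigment, Sag (ENSMUSG00000056055.13, chromosome 1, 87803680 to 87845158, plus strand) had 118, 99 and 144 fragments in control and 74, 125 and 57 in 4xIOP. Rcvrn (ENSMUSG00000020907.1, chromosome 11, 67695326 to 67703333, plus strand) had 64, 63 and 125 against 61, 64 and 55. Control replicate 3, the longest list, had the highest summit for all 9 genes, and 4xIOP replicate 3, the shortest, had the lowest for 7 of 9.

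To compare genes across lists, the summit fragments were divided by the genome-mean background of the list. On this scale Sag was highest, at 43.2 ± 15.9 times the mean (SD, n = 6 lists), followed by Pde6g (40.9 ± 13.1), Gnat1 (38.8 ± 14.5), Gnb1 (35.6 ± 12), Cngb1 (35.3 ± 11.6), Pde6a (33.8 ± 13.3), Pde6b (30.5 ± 11.6), Rcvrn (30.1 ± 11.2) and Cnga1 (24.5 ± 9.93). The ranges of all neighbours in this order overlapped. Within lists the order held best at the bottom, where Rcvrn was above Cnga1 in 6 of 6 lists. Sag was above Pde6g in 3 of 6.

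Rod genes stood near the top of the genome by fragments and near the bottom by fold. Rank was expressed as a percentile among the protein-coding genes with a promoter peak in that list (44.6% to 56.9% of all genes). By summit fragments, the mean percentile over the 6 lists was 99.0 ± 0.592 for Pde6g and 98.8 ± 1.10 for Sag (SD, n = 6 lists), and lowest for Cnga1 at 86.1 ± 6.12. By fold enrichment, it was 1.74 ± 1.22 for Sag, 1.75 ± 0.546 for Cnga1 and 3.27 ± 1.81 for Pde6b, and only Pde6g reached 28.8 ± 8.44. In all 54 combinations of gene and list the fragments were above the median of marked genes, and in all 54 the fold was below it.

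The quantity that separates both ranks is the local background, by which the fold is divided and which was a whole number of fragments per 10-kb window within 0.05 fragments. Around Sag it was 1855, 2176 and 2700 fragments per 10 kb in control and 1253, 1775 and 942 in 4xIOP, which gave folds of 2.85, 2.30 and 2.82 and of 2.52, 2.99 and 3.07. The genome mean of the same lists was between 87.4 and 173. Every rod gene stood at or above the 96.8th percentile of marked genes by local background in every list. The median of the 9 genes was 10.4, 6.71 and 15.7 times the genome mean in control and 10.7, 12.9 and 5.07 times in 4xIOP, while that of all marked genes was 2.24, 1.77 and 2.93, and 2.46, 2.26 and 1.70 times. A high fold marks a peak that stands out from its own 10-kb window. That window takes in the peak itself and any neighbouring peaks, so this background is not that of the surroundings alone. By the definition of the fold, many fragments with a low fold also imply a high background.

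**Figure D1:**
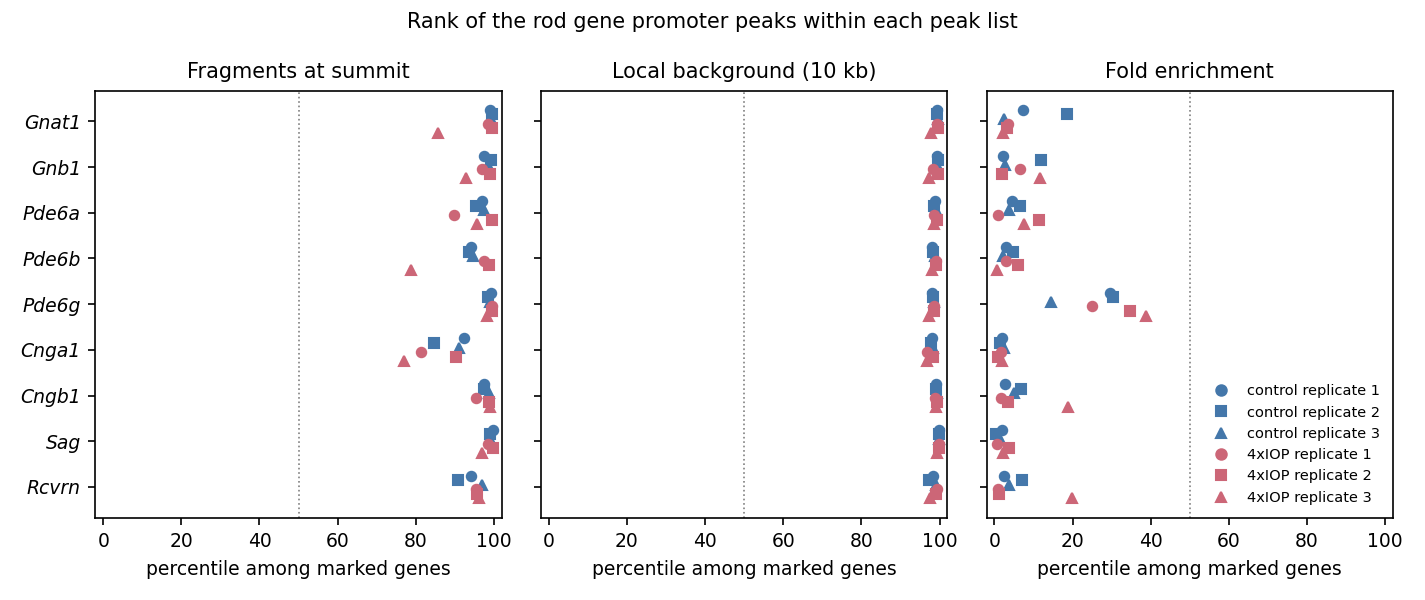
Percentile of each rod gene's promoter peak among all marked protein-coding genes of the same list (horizontal axes, 0 to 100), by summit fragments, local background and fold enrichment. Each point is 1 of the 6 lists (blue control, red 4xIOP, symbol for the replicate), and the dotted line is the median of marked genes. All fragment and background values lie at or above 77.0, and all fold values at or below 38.7.

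When each list was shortened to its 16195 peaks of highest fold, 0 of the 9 genes kept a promoter peak in all 6 lists, while the share of all genes fell only from 39.5% to 35.7%. In control replicate 3, which lost the most peaks, 0 of 9 rod genes kept one, against 9 of 9 in 4xIOP replicate 3, which lost none. With a −log10 q of at least 5 all 9 genes stayed marked in all 6 lists, since their lowest value was 5.03 (Pde6b in 4xIOP replicate 3).

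Other genes of the rod pathway were also often marked. Of 11 such genes, 8 were marked in all 6 lists (Gngt1, Grk1, Rgs9, Rgs9bp, Gnb5, Guca1a, Guca1b and Gucy2e) and the other 3 in 5 lists. Their median percentile was 93.3 by fragments, 98.5 by background and 6.81 by fold, beside 96.9, 98.8 and 5.87 for the 9 rod genes. The genes varied: by fragments Gucy2f was at a mean percentile of 33.1 over its 5 lists (71.4 by background) and Gngt1 at 71.0, and by fold Gucy2e and Rgs9 were at 42.8 and 29.3, above all 9 rod genes. Gucy2f was named after its value was seen. Grk1, the kinase of the visual pigment, was at 42.1 ± 12.3 times the genome mean (SD, n = 6 lists). The transcription factors Nrl, Nr2e3 and Otx2 were at 29.5 ± 10.2, 35.6 ± 14.2 and 33.0 ± 10.0 times the mean, with mean fold percentiles of 0.318, 0.297 and 0.210.

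The cone counterparts differed in how often they were marked. Of 10 cone phototransduction genes, 1 (Gnb3) had a promoter peak in all 6 lists and 5 (Pde6h, Cngb3, Arr3, Opn1sw and Opn1mw) in none. Cones are a small share of mouse photoreceptors, and a gene without a peak is below the threshold of its list, which does not show that acetylation is absent. Gnat2, the cone transducin alpha subunit, had a peak in control replicate 3 only, with 21 fragments beside 147 for Gnat1. Pde6c, the cone catalytic subunit, had 15 fragments in control replicate 1 and 13 in control replicate 3, where Pde6a had 74 and 128. Cnga3 had 13 fragments in control replicate 3 and no peak elsewhere, where Cnga1 had 104. Gnb3, the beta subunit of cone transducin, which is also used by ON bipolar cells, had 100, 101 and 78 fragments in control and 44, 55 and 57 in 4xIOP. The groups did not overlap, as for 27.5% of marked genes on these raw values, which move with list length. After division by the genome mean Gnb3 was at 45.6, 29.9 and 31.6 in control and at 21.9, 25.9 and 22.2 in 4xIOP, again without overlap, as for 1% of marked genes. It was singled out after its values were seen. Gnb1 was above it in 4 of 6 lists, and their ratio ranged from 0.760 to 1.76. These contrasts between gene lists are counts and values, with no test over the genes.

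**Figure D2:**
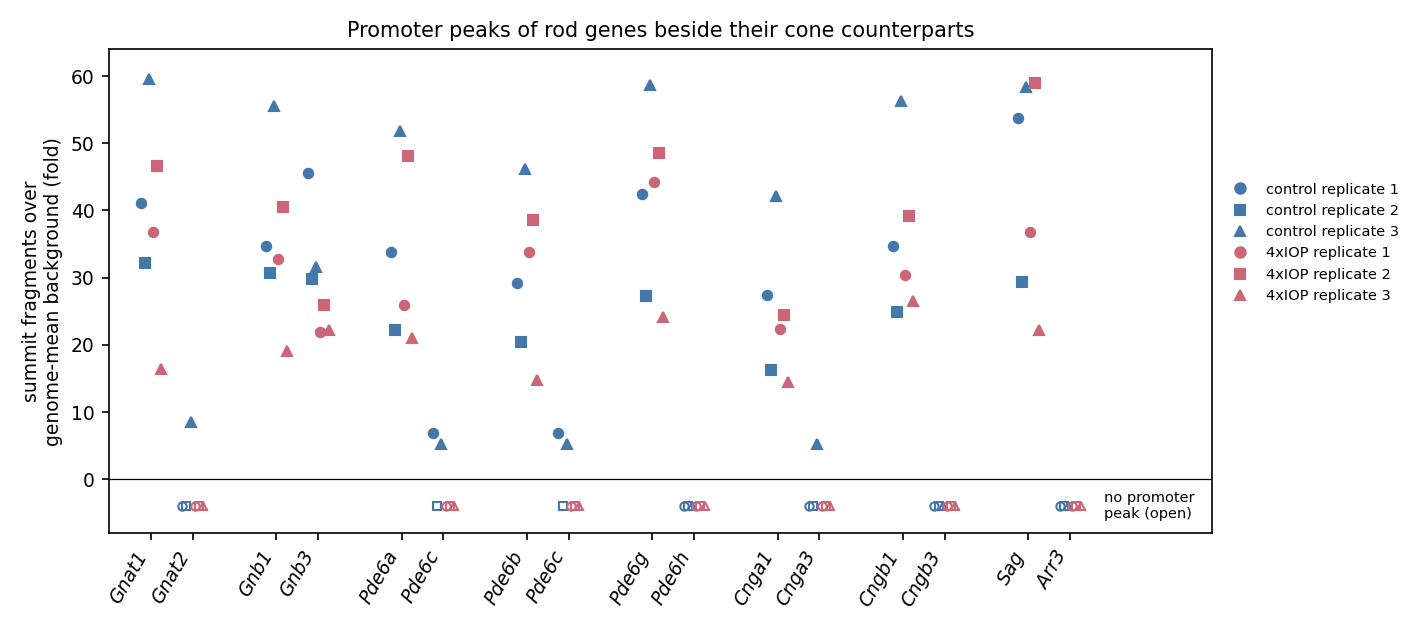
Summit fragments of the promoter peak divided by the genome-mean background of the list (vertical axis, fold) for rod genes and, to the right of each, the cone gene of the same subunit; Pde6c is shown beside both catalytic rod subunits. Each filled point is 1 list and open points mark lists without a promoter peak. Of the cone genes shown, only Gnb3 has a point in all 6 lists.

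Next, the shape of the mark around the start sites was examined. Peaks left the start itself free, and lay more often downstream than upstream of it. A promoter peak with its summit upstream was found in all 6 lists only for Pde6g and Cnga1, and in 0 lists for Gnb1, 1 list for Pde6b and 1 for Rcvrn. For the others, the nearest upstream promoter region was called in 5 lists for Gnat1 and Sag, 3 for Cngb1 and 2 for Pde6a. Distances were taken from the main start, the outermost transcript start of the gene in the basic set of GENCODE. From 90 bp before to 30 bp after it, no rod gene was covered in any list, in steps of 20 bp. Genes marked in all 6 lists were covered in 25.8% of gene and list combinations at -90 bp, and their lowest cover within 500 bp of the start was 24.9% at -70 bp. Downstream, cover of the rod genes was highest at 350 bp, at 90.7% of combinations, against 75.3% for all marked genes at the same place. The 250 bases before the main start held no covered base in 36 of 54 combinations (66.7%), beside 49.8% over all marked genes.

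Single genes differed in where the mark lay. The highest summit of Gnat1 was 252 to 291 bp downstream of the start in every list, the narrowest range of the 9 genes. In Pde6g a second downstream region, centred 1.40 kb from the start, and an upstream region at -0.317 kb were called in all 6 lists together with the highest one at 0.518 kb. In Cnga1 the highest summit was upstream of the main start in all 6 lists, between -635 and -1745 bp. A transcript with a retained intron, outside the basic set, begins further out, at 72644275, so that the summits of the control lists and of 4xIOP replicate 2 lay between both starts, inside the annotated gene, and upstream depends here on the start chosen. In Sag the highest summit was downstream in 5 lists and at -525 bp in 4xIOP replicate 1. Over all 54 combinations 47 summits (87.0%) were downstream, beside 74.7% for all marked genes. The stretch without cover takes in the last bases of the printed promoters, which reach further upstream. Peaks overlapped the printed stretches of Gnb1 and Sag in 0 lists, that of Pde6b in 1, that of Cnga1 in 2 and that of Cngb1 in 3, with at most 119 bases covered.

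**Figure D3:**
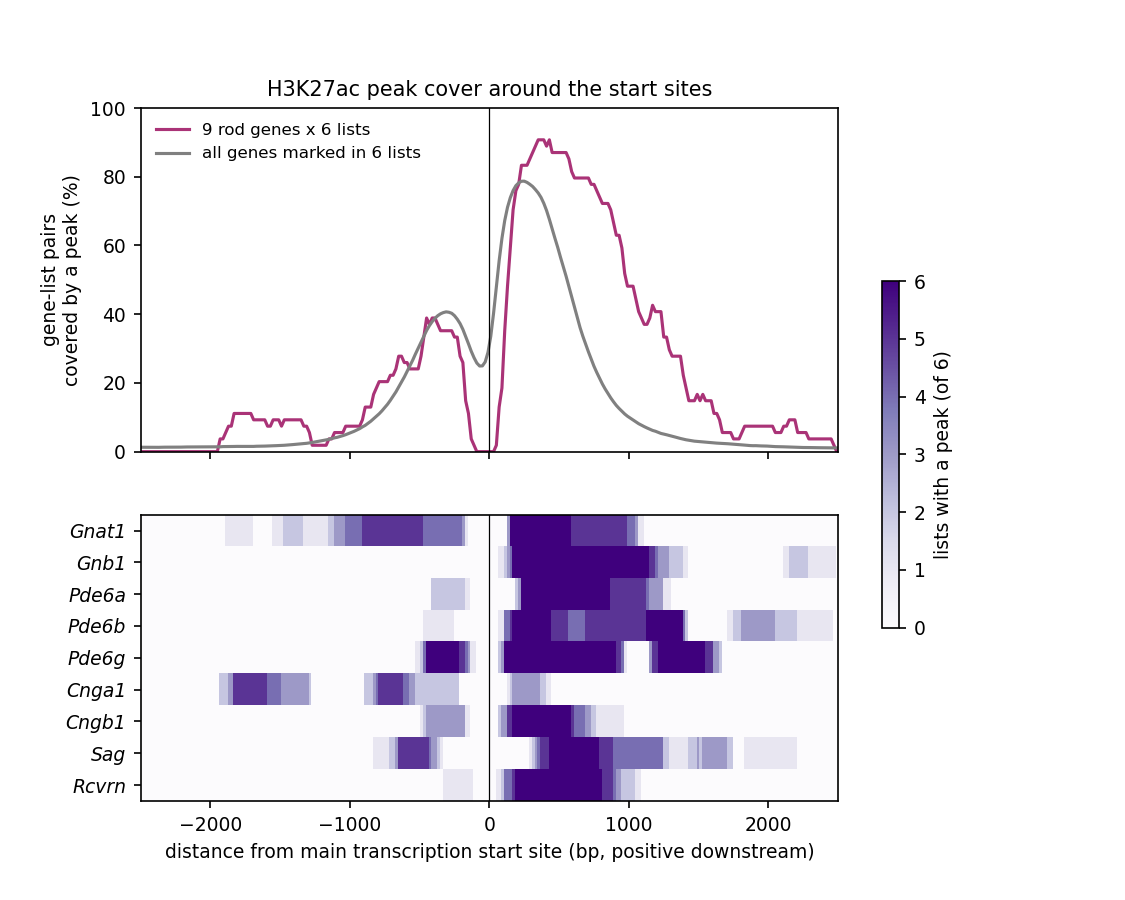
Cover by peaks against the distance from the main start site (horizontal axis, bp, positive downstream). The upper panel gives the percentage of gene and list combinations covered for the 9 rod genes (purple) and for all genes marked in 6 lists (grey), and the lower panel the number of lists, 0 to 6, that cover each position of each rod gene. The purple line is at 0 from -90 to 30 bp and highest at 350 bp.

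The gene bodies with 20 kb on either side held 82 consensus regions, formed by merging the peaks of the 6 lists. A peak was found in every list at 28 of them (34.1%), and at 24 a single list had one (1 of 6). Over the whole genome 26.4% of 39942 regions were called in all 6, and 14954 in a single list. Own promoters accounted for 23 regions, promoters of neighbouring genes for 23, introns for 13, gene body stretches with an exon for 4, and sequence upstream or downstream for 16 and 3. None of these regions was called in all lists of 1 group and in none of the other. No share over all 39942 regions was set beside this count.

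Away from promoters, 8 regions were called in all 6 lists, and 4 of them belonged to Gnb1. They were centred -7.92 kb from its start and, within introns, 30.8, 32.0 and 46.3 kb downstream. The intronic region at 32.0 kb had 75, 90 and 123 fragments in control and 57, 106 and 40 in 4xIOP, close to the promoter of the same gene (34.1 against 35.6 times the genome mean). The others were an intronic region of Cnga1 at 33.8 kb (14.0 times the mean), an upstream region of Cngb1 at -13.9 kb (20.2 times), an upstream region of Rcvrn at -12.4 kb (29.1 times) and a region with an exon of Pde6a at 25.6 kb (13.4 times). The Rcvrn region had 68, 58 and 88 fragments in control and 68, 91 and 36 in 4xIOP, beside 64, 63 and 125 and 61, 64 and 55 at its promoter. Which gene a distal region acts on is not given by these data.

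Several regions lay at promoters of other genes. Within 6 lists, the Gnat1 locus held regions at Slc38a3, Pde6a at Slc26a2, Pde6b at Atp5k, Pde6g at Nploc4 and at the pair Ccdc137 and Oxld1, Cngb1 at Tepp and Sag at Dgkd. Values of a whole locus thus include neighbours. For Gnat1, they lay 11.9, 12.7 and 21.7 kb downstream of the start.

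**Figure D4:**
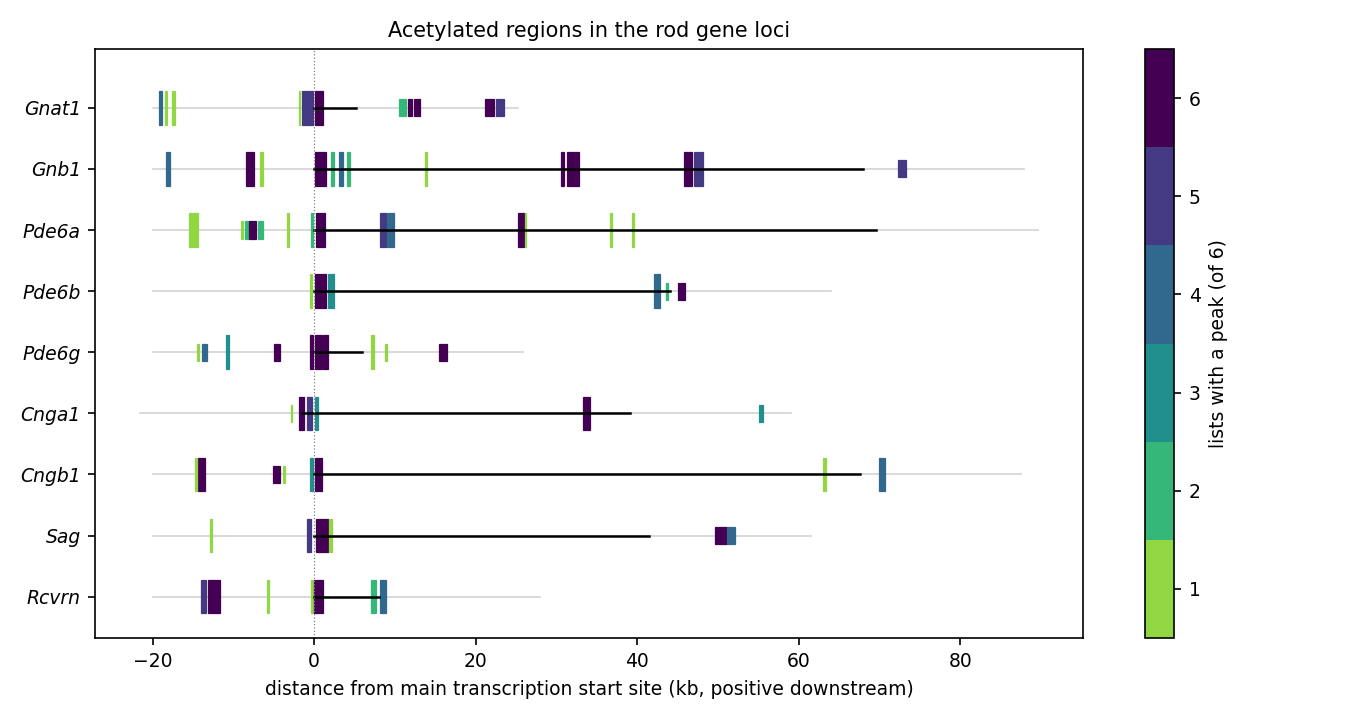
Consensus regions in each rod gene locus against the distance from the main start site (horizontal axis, kb, positive downstream). Black lines are gene bodies, grey lines the 20 kb on either side, and boxes the regions to scale, coloured by the number of lists with a peak, with short boxes for those at promoters of other genes. Gnb1 has 3 regions called in all 6 lists between 30.8 and 46.3 kb.

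Some distal regions came in pairs with a narrow gap. Gaps of 100 to 400 bases between regions called in at least 5 lists each, with no promoter, numbered 372 in the genome and 3 in the rod gene loci, 2 in introns of Gnb1 and 1 upstream of Rcvrn. They are printed on the strand of the gene from GRCm38.p6, because the bases between paired acetylated regions are where regulatory factors are usually found. Capitals again mark TAATCC and TGCTGA on either strand.
Gnb1, 31.1 kb from the start, chr4:155522334-155522626, + strand: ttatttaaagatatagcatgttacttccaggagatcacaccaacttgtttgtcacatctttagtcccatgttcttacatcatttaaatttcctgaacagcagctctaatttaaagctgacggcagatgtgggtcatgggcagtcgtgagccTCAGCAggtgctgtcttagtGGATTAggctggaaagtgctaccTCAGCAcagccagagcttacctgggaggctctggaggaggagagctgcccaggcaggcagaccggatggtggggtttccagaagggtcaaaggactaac
Gnb1, 46.9 kb from the start, chr4:155538188-155538409, + strand: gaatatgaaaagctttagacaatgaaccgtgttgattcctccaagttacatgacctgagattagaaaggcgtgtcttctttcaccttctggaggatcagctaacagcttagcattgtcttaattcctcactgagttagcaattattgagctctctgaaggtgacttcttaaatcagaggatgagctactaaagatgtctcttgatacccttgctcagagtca
Rcvrn, -13.3 kb from the start, chr11:67681934-67682174, + strand: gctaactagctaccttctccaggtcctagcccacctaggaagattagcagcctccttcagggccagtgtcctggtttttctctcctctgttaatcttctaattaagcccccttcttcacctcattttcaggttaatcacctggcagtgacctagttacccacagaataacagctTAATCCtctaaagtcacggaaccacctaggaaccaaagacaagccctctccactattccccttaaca

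TAATCC was found in the Gnb1 gap at 31.1 kb, which also held TGCTGA at 2 places, and in the Rcvrn gap at -13.3 kb, and neither motif in the Gnb1 gap at 46.9 kb. In windows of 200 bases centred on all 372 gaps, TAATCC was present in 36.8% and TGCTGA in 19.9%. The shares among promoters, in 250 bases, were 6.25% and 16.1%. The windows differ in kind and length, and no test was made.

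It was then asked whether recurring pressure moved the mark at rod genes. limma was run on the rank of the promoter fold within each list, over all 8669 genes marked in all 6 lists, and called 0 genes (0%) at a Benjamini-Hochberg adjusted p of 0.05, the 9 rod genes included. Over all genes, 270 had an unadjusted p under 0.05. The differences of the rod genes, 4xIOP minus control in normal scores, lay between -0.34 ± 0.39 (SE) for Gnat1 and 0.43 ± 0.38 for Pde6g, and all had an adjusted p of 0.99957 in limma. Both differences were smaller than 2 standard errors, and single lists moved them: that of Gnat1 was -0.05 without control replicate 2 and -0.66 without control replicate 3, and that of Pde6g was 0.15 without control replicate 3. The same limma fit over the 10529 regions shared by all 6 lists gave 0 calls (0%), and 334 regions had an unadjusted p under 0.05. Of the 28 in rod gene loci, 1 was among those 334, the Pde6a region at 25.6 kb (difference 0.82 ± 0.37 SE, unadjusted p 0.0434 and adjusted p 0.999894 in limma). That region held 32, 22 and 43 fragments in control and 32, 34 and 26 in 4xIOP, so that by fragments the groups overlapped. Without control replicate 2 its difference was 0.53 (unadjusted p 0.203 in limma), and 0.54 without 4xIOP replicate 1 (0.198). Of the 6 fits without 1 list, those without control replicate 3 (1.03) and 4xIOP replicate 3 (1.12) kept an unadjusted p under 0.05.

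The length covered by peaks was lower in 4xIOP in the mean for all 9 loci, gene body with 20 kb on either side, as it was for 94.3% of 15583 genes with a peak in any list. As a share of all covered bases of the list, Pde6b, Pde6g and Cngb1 were higher in 4xIOP in the mean, by 34.8, 92.7 and 3.15 ppm, and the other 6 lower. Sag had 2881, 3125 and 3972 bp covered in control and 1701, 2488 and 1198 bp in 4xIOP. Rcvrn had 2942, 2513 and 4588 bp against 1927, 2339 and 1322 bp. In these 2 loci all 4xIOP lists lay below all control lists, a difference of -1.53 kb for Sag and -1.49 kb for Rcvrn with a two-sided exact permutation p of 0.1 each, the smallest that 3 lists against 3 allow. Both separations rest on the labels of the 4 lists that carry the name of the other group. With 5 kb on either side, Sag overlapped between groups (-0.746 kb, exact permutation p 0.2). The loci without overlap were then Cnga1 and Rcvrn, beside 10.7% of all genes. Without control replicate 3 the Rcvrn difference was -0.865 kb. As a share of covered bases, Rcvrn made up 272, 282 and 228 ppm in control and 189, 226 and 198 ppm in 4xIOP. These did not overlap, with 228 and 226 ppm the closest values, and no share over all genes was set beside this scale. Sag overlapped, with 266, 350.3 and 197 against 167, 240.4 and 179.8 ppm. By covered length over the full loci, all 4xIOP lists lay below all control lists for 10.3% of these 15583 genes. The opposite order, which 0 rod genes showed, was found for 0.0449%. The other 7 loci overlapped, with exact permutation p between 0.3 and 0.8. For Gnb1, which had the most bases covered in the mean of either group, the values were 6252, 6366 and 9163 bp in control and 4277, 6731 and 2960 bp in 4xIOP.

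The direction changed with a cut by fold, by which rod genes ranked low and which shortened the longest list most. It left 2, 7 and 0 of the 9 promoters marked in control and 2, 3 and 9 in 4xIOP. The turn is thus partly built into the cut and is not read as a change in 4xIOP. With the 16195 peaks of highest fold in each list, the difference turned to 0.143 kb for Sag, 0.505 kb for Rcvrn, 1.08 kb for Gnb1 and 0.0547 kb for Gnat1, and 0 loci were without overlap in the direction of lower 4xIOP. With a −log10 q of at least 5 that number was also 0. List length moved with these values. Control replicate 3 had the longest cover at all 9 loci and 4xIOP replicate 3 the shortest at 8 of 9, as they did in the whole genome, and the part of list length in the difference was not tested. Without 4xIOP replicate 2 the number of loci without overlap went from 2 to 7, beside 18.8% of all genes. In all, the 9 loci held 46, 60 and 75 peaks in control and 44, 57 and 36 in 4xIOP, or 60.3 ± 14.5 and 45.7 ± 10.6 (SD, n = 3 lists each). The difference of -14.7 peaks had a two-sided exact permutation p of 0.2, was -7.33 without control replicate 3, and turned to 11 with the 16195 peaks of highest fold. As a share of all covered bases of the list, the loci made up 2597, 3159 and 2282 ppm in control and 2092, 3074 and 2335 ppm in 4xIOP, and on this scale the groups overlapped. In the only 2 lists whose carried name matches the label, the total was 75 peaks in control replicate 3 and 36 in 4xIOP replicate 3, the longest and the shortest list.

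**Figure D5:**
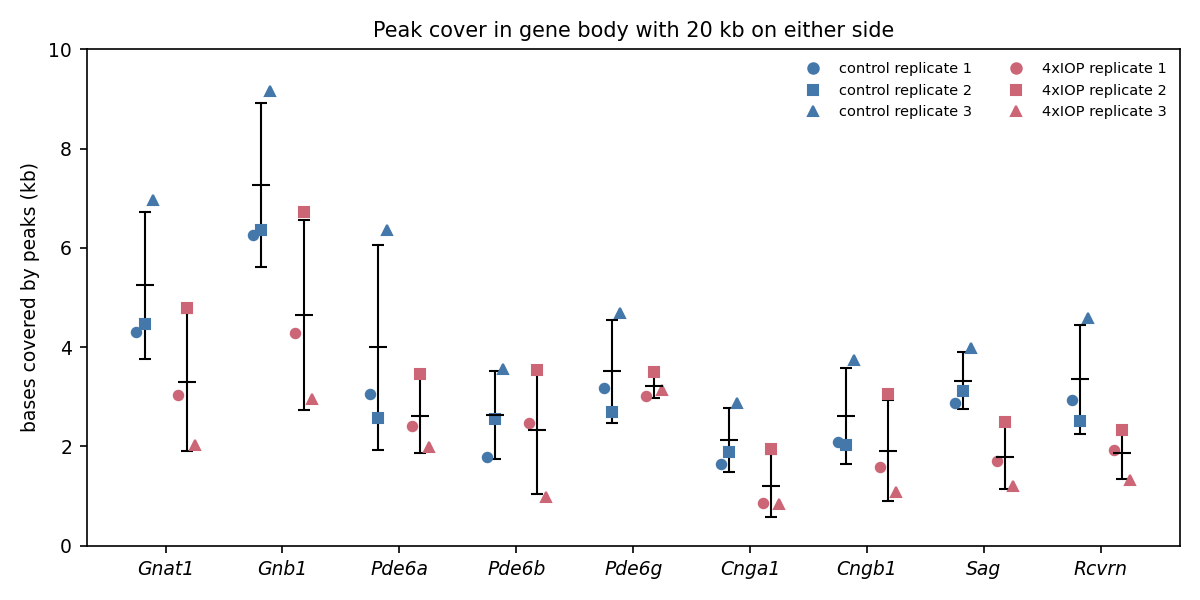
Bases covered by peaks (vertical axis, kb) in the gene body with 20 kb on either side of each rod gene. Points are the single lists, black lines the mean and SD of the 3 lists of a group. Only at Sag and Rcvrn do the control and 4xIOP points not overlap, and control replicate 3 is highest at every gene.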

How the data were processed

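H3K27ac ChIP-seq of single mouse retinas had been summarised by the authors as 1 peak list per sample, and samples were grouped by their labels. The submitters' processing notes name STAR 2.7.8a, MACS2, HOMER, edgeR, bedtools 2.29.2 and the build mm10, with no roles. As deposited, each peak has a fold enrichment, −log10 p and −log10 q values and a summit offset; reads and depth were not analysed here. The deposited fold was taken as (fragments + 1) over (background + 1), from which fragments and background were recovered within a tolerance of 0.001. The genome mean of a list was not measured but taken as the lowest background recovered among its peaks. For fragments per 10 kb, the shortest peak of the list stood for the fragment length. The 9 genes and all lists were chosen with earlier results of these data known. A promoter was 2.5 kb around any start of the basic GENCODE set (GRCm38), a locus the gene body with 20 kb on either side, and an overlap 1 bp.

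Promoter folds were ranked within each list, turned into normal scores and compared in limma 3.58.1 (R 4.3.3) with Benjamini-Hochberg adjustment at 0.05. Single loci and totals were compared by two-sided exact permutation tests. Other steps used Python 3.11.15 with pandas 2.3.3. All 9 genes were named, the cone counterparts beside them, and of other lists only genes marked in 0 or 6 lists, except Gucy2f (5 lists), named after its value was seen. The rule for printing sequences left no gene, so those shown were chosen after their values were seen, as were the gaps between paired regions and the alternatives for the percentiles. Alternatives changed the peak threshold, the window, the overlap, the lists used and the replicate block.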

Additional observations from a re-analysis of the deposited data

How the results depend on the processing

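With equal numbers of highest-fold peaks per list, 0 rod genes stayed marked in all 6 lists, the difference in peaks turned from -14.7 to 11, and the differences in covered length turned to 0.143 kb for Sag, 0.505 kb for Rcvrn, 1.08 kb for Gnb1 and 0.0547 kb for Gnat1, with exact permutation p of 0.2, 0.7, 0.4, 0.3 and 1. That cut is by fold, where rod genes ranked low, so the turn is partly built into it. Loci without overlap in covered length numbered 0 with that cut and 0 with a −log10 q of at least 5, beside 7.24% and 11.0% of all genes. In the 2 lists whose carried name matches the label, which allow no test, the difference was -39 peaks and 9 loci were lower in 4xIOP, as were 98.6% of all genes. Leaving out 1 list gave 2 to 7 such loci, 7 without 4xIOP replicate 2, and -21.8 to -7.33 peaks, the latter without control replicate 3. The share of all genes was then 11.3% to 35.0%, and 18.8% without 4xIOP replicate 2. It was highest without control replicate 2, where 2 of the 9 rod loci were without overlap. limma called 0 promoters and 0 regions under every alternative, with 179 to 479 and 251 to 701 at an unadjusted p under 0.05. With the replicate block it called 0 and 0, with 237 and 289 unadjusted. Same-numbered lists did not deviate together (correlations -0.0167, -0.0443 and -0.144 over promoters). Such correlations cannot tell whether same-numbered eyes share a mouse. The median fold percentile of the rod genes was 3.45 with a −log10 q of at least 5, instead of 5.87. A peak list holds nothing below its threshold, which limits every statement on genes without a peak.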
